A study of Mus musculus with 2 samples.

Results

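The MYC, MAX and MXD network is a set of transcription factors that share 1 dimer partner. Its 10 genes, Myc, Mycn, Mycl, Max, Mga, Mnt, Mxd1, Mxd3, Mxd4 and Mxi1, were taken by gene symbol from the 25749 genes in the deposited tables, and all 10 were found. Their messenger RNA was compared between T136A cells, mouse E14.1 cells with T136A AHCY, in which alanine replaces a threonine, and WT cells, E14.1 cells with wild-type AHCY. E14.1 is a line of embryonic stem cells, and AHCY hydrolyses the S-adenosylhomocysteine left behind by methylation reactions. How the T136A cells were made, whether they are 1 clone, and what else the lines carry is not stated in any source read for this work. Each genotype had 1 library, so no difference below has a replicate check, no test between genotypes was possible, and words such as "higher" compare these 2 libraries only.

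The proteins of the network bind DNA as pairs. MYC, MYCN and MYCL pair with MAX, bind the E-box sequence CACGTG and raise transcription of genes for growth and biosynthesis. MNT and the MXD proteins, among them MXI1, also pair with MAX, bind the same sequence and repress through the SIN3 and histone deacetylase corepressor. MGA is a further MAX partner and the scaffold of the Polycomb complex PRC1.6, which keeps germline genes silent in mouse embryonic stem cells. In these cells MYC and MYCN sustain self-renewal and can stand in for one another.

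The E-box itself occurred in the promoter windows of 3 of the 9 members that RefSeq promoter sequences (GRCm38.p6) covered, Max, Mnt and Mxd4. The windows ran from 250 bases before to 50 bases after the annotated start, both strands were searched (the motif is its own reverse complement), and 12.3% of the 8904 genes at or above 1 RPKM with a window held the motif in at least 1 window. The windows of Mycn, Mycl, Mga, Mxd1, Mxd3 and Mxi1 did not hold these 6 letters. The stretches around the motif are shown for those 3 members because they are what the network's own proteins recognise, with the E-box in capitals and each read 5′ to 3′ along its gene.
Max (chr12:76962246-76962291, minus strand): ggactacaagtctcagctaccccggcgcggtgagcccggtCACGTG
Mnt (chr11:74830761-74830846, plus strand): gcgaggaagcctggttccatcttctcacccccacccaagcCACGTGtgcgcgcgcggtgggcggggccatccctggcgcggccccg
Mxd4 (chr5:34187884-34187960, minus strand): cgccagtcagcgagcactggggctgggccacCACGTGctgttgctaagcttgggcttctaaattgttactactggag
The motif began 3 bases before the start in Max, 123 bases before it in Mnt and 219 bases before it in Mxd4. Each stretch shows up to 40 bases on either side of the motif. It is cut where it would pass the upstream end of the window or the annotated start. The Max motif spans the start, so its stretch ends with the motif. A match describes the letters only and says nothing of binding in these cells.

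Levels are in RPKM, which corrects read numbers for exon length and for library size, so they can be set side by side between genes. Whole read numbers were recovered from the deposited values and the exon lengths, and the intervals below are 95% intervals of counting error alone: reads are not independent molecules, and the intervals compare these libraries, not the genotypes. The implied totals were 18396840 reads in T136A and 17506154 reads in WT. Markers of pluripotent cells were high in both libraries, with Pou5f1 at 223 RPKM in T136A and 271 RPKM in WT. Markers of feeder fibroblasts and of differentiated cells were present at lower levels and are given with the pathway genes.

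Myc was the member with the largest difference. It stood at 17.7 RPKM in T136A (interval 16.6 to 18.95, 887 reads) and at 2.27 RPKM in WT (1.86 to 2.74, 108 reads). The intervals lie far apart, and the T136A level was 7.82-fold higher (6.39 to 9.63). Its place in the range of levels differed too: 73.7% of genes at or above 1 RPKM were below it in T136A, and 22.7% in WT. With 1 RPKM added to each value the log2 ratio was 2.52, rank 15 from the top among 12320 genes. Myc (ENSMUSG00000022346) lies at 61985391 to 61990374 on the plus strand of chromosome 15 (GRCm38, GENCODE M21).

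Mycn, the member known for its role in early embryonic and neural progenitor growth, was the most abundant gene of the network in both libraries. It was at 59.6 RPKM in T136A (57.7 to 61.6, 3612 reads) and at 78.3 RPKM in WT (76.1 to 80.7, 4519 reads). Its level was therefore 1.31-fold lower in T136A (1.26 to 1.37), in the opposite direction to Myc, with a log2 ratio of -0.39. Mycl, which shares the DNA-binding and dimerisation domain, was at 2.89 RPKM in T136A (2.52 to 3.31) and 1.82 RPKM in WT (1.52 to 2.17), 1.59-fold higher (1.27 to 1.99).

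**Figure D1:**
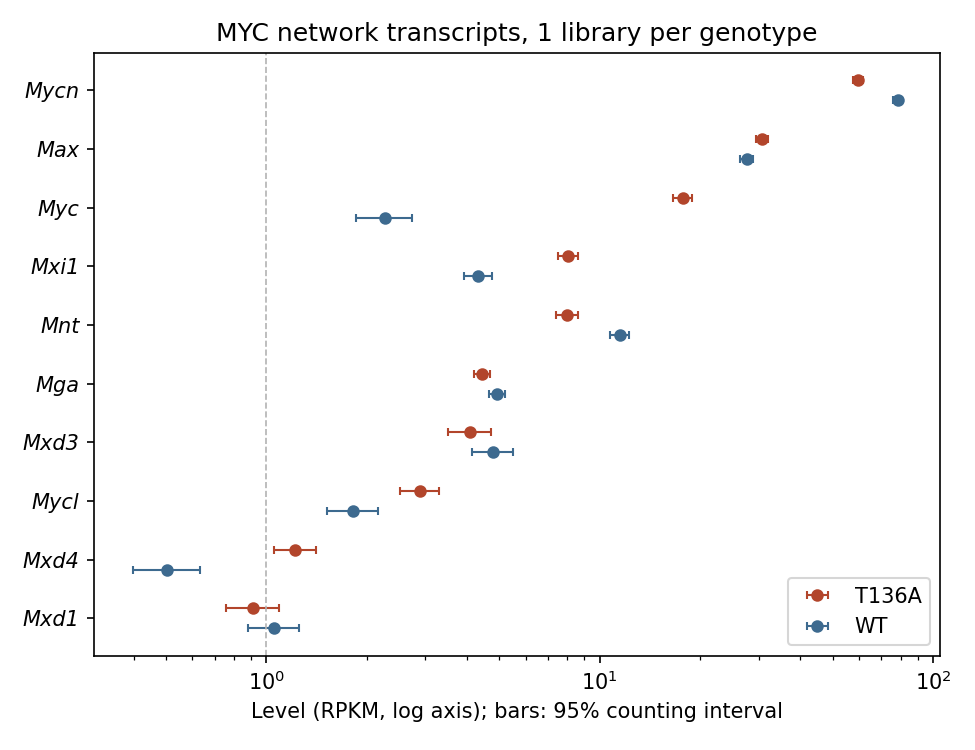
Level of each network member in RPKM (log axis) in the T136A library (red, upper point of each pair) and the WT library (blue, lower point), with 95% counting intervals as bars and 1 library per genotype; the dashed line marks 1 RPKM. Mycn is highest in both libraries, and Myc stands at 17.7 RPKM in T136A against 2.27 RPKM in WT.

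The differences of Myc and Mycn were of like size in RPKM and opposite in sign: T136A minus WT was 15.5 RPKM for Myc and -18.8 RPKM for Mycn. The summed level of Myc, Mycn and Mycl was 80.2 ± 1.17 RPKM in T136A and 82.4 ± 1.2 RPKM in WT (± counting SE), a ratio of 0.973 ± 0.0201. The RPKM sums thus differed by less than 2 counting SE, while their makeup differed. Myc gave 22.1% of the summed level in T136A and 2.75% in WT, and Mycn gave 74.3% in T136A and 95.03% in WT. The level of Mycn was 3.36 times that of Myc in T136A and 34.5 times in WT. On read numbers, which are not per length, Myc took 887 of 4714 reads of these 3 genes in T136A, 18.8% (exact Clopper-Pearson interval 17.7 to 20.0%), and 108 of 4756 in WT, 2.27% (1.87 to 2.74%). These read totals are not scaled for library size (18396840 reads in T136A, 17506154 in WT), and the comparison of sums was made on RPKM, not on reads.

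Max, the shared partner, was close to equal in the libraries. Its level was 30.7 RPKM in T136A (29.4 to 32.1) and 27.6 RPKM in WT (26.3 to 28.95), 1.11-fold higher (1.04 to 1.19), with a log2 ratio of 0.15. The summed MYC-type level was 2.61 times that of Max in T136A and 2.98 times in WT.

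Among the MAX partners that oppose MYC, Mnt and Mxi1 differed in opposite directions. Mnt, a repressor present in most dividing cells, was at 7.97 RPKM in T136A (7.38 to 8.59) and 11.5 RPKM in WT (10.8 to 12.3), 1.44-fold lower (1.31 to 1.595). Mxi1, of the MXD family, was at 8.06 RPKM in T136A (7.52 to 8.62) and 4.32 RPKM in WT (3.92 to 4.75), 1.87-fold higher (1.66 to 2.10). Mnt was thus clearly the most abundant antagonist in WT, while in T136A the intervals of Mnt and Mxi1 overlapped. The exon length of Mxi1 in GENCODE M21 gave no whole reads; its 833 reads in T136A and 425 in WT come from the smallest length, 5619 bases, that did, and its RPKM values do not depend on this.

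The remaining antagonists were lower in level. Mxd4, which is linked to cell cycle exit, was at 1.22 RPKM in T136A (1.06 to 1.41) and 0.505 RPKM in WT (0.397 to 0.633), 2.42-fold higher (1.85 to 3.21); it reached 1 RPKM in T136A alone, and on the scale with 1 RPKM added its log2 ratio was 0.56. Mga was at 4.44 RPKM in T136A (4.20 to 4.69) and 4.92 RPKM in WT (4.66 to 5.20), 1.11-fold lower (1.03 to 1.20). For Mxd3, known from proliferating cells, the values were 4.08 RPKM in T136A and 4.77 RPKM in WT, a fold of 0.855 with an interval of 0.695 to 1.05. Mxd1, the founding MXD gene and a marker of differentiating cells, was at 0.915 RPKM in T136A and 1.06 RPKM in WT, a fold of 0.864 with an interval of 0.669 to 1.12. The intervals of Mxd3 and Mxd1 include 1, so no difference was detectable at this depth. Without a stated strand rule, reads from overlapping genes cannot be told apart: 105 exon bases of Mxd3 lie opposite Prelid1, which was at 128.5 RPKM in T136A and 122.9 RPKM in WT, 514 of Mxd4 lie opposite Gm42846, and 194 of Mxi1 lie opposite Gm10197. Their part in the values was not tested.

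As with the MYC-type genes, the summed level of the 6 antagonists was close to equal, at 26.7 ± 0.544 RPKM in T136A and 27.1 ± 0.576 RPKM in WT (± counting SE), a ratio of 0.986 ± 0.029. Mxi1 gave 30.2% of it in T136A and 15.96% in WT, and Mnt gave 29.9% in T136A and 42.4% in WT. MYC-type transcripts stood at 3.01 times the antagonist sum in T136A and at 3.04 times in WT. These are sums of transcripts and say nothing of protein amounts or of dimers.

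**Figure D2:**
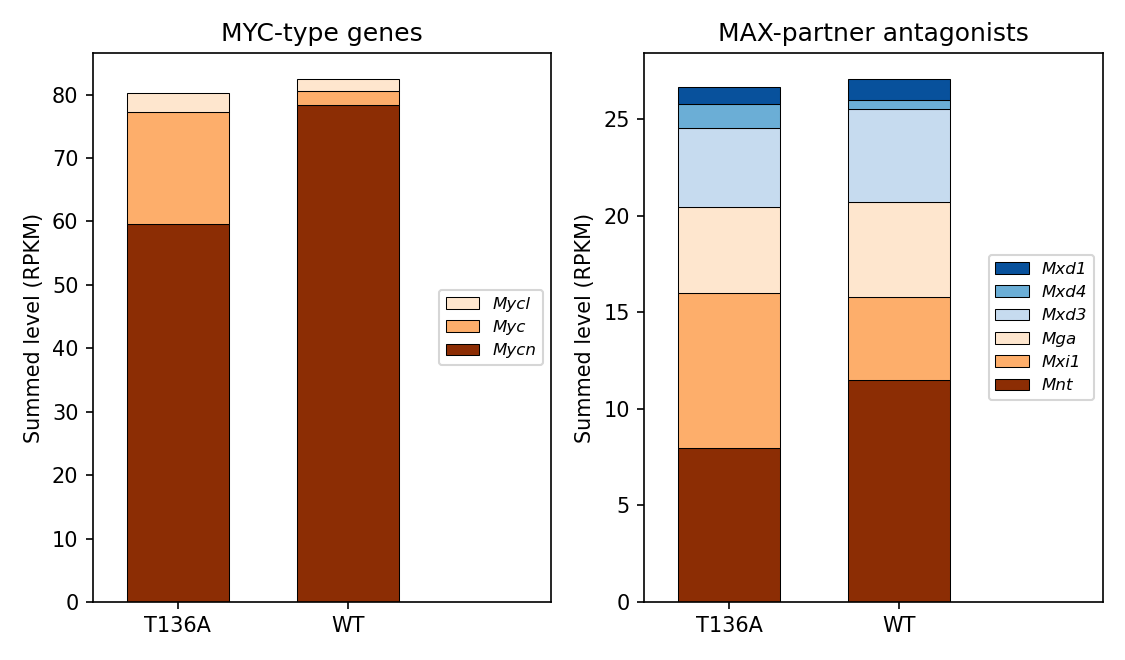
Summed level in RPKM of the MYC-type genes (left panel) and of the antagonists (right panel, own axis) in the T136A and WT libraries, split by gene, with 1 library per genotype. The bars are of nearly the same height, 80.2 RPKM in T136A against 82.4 RPKM in WT for the MYC-type genes, while Myc and Mxi1 take larger parts and Mycn and Mnt smaller parts in T136A.

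The order of levels also differed. In T136A it ran Mycn, Max, Myc, Mxi1, Mnt, Mga, Mxd3, Mycl, Mxd4 and Mxd1, and the counting intervals of Mxi1 and Mnt, of Mga and Mxd3, and of Mxd4 and Mxd1 overlapped. In WT it ran Mycn, Max, Mnt, Mga, Mxd3, Mxi1, Myc, Mycl, Mxd1 and Mxd4, with overlapping intervals between Mga, Mxd3 and Mxi1 and between Myc and Mycl. Myc held rank 3 in T136A and rank 7 in WT.

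All 10 members reached 1 RPKM in at least 1 library, Mxd1 through WT alone and Mxd4 through T136A alone. On the log2 scale with 1 RPKM added, 1 of the 10, Myc, was at least 2-fold higher in T136A and 0 were at least 2-fold lower, beside 3.13% and 3.10% of the 12320 genes at or above 1 RPKM. As plain RPKM ratios, 2 members, Myc and Mxd4, were at least 2-fold higher and 0 lower, beside 6.30% and 6.36% of genes. Log2 ratios were above 0 for 5 members and below 0 for 5, with a median of 0.02 beside -0.03 over all genes. Apart from Myc, Mxi1, Mxd4, Mycl and Mnt, each member lay inside the central 68% of genes, which ran from -0.47 to 0.44. The counting interval of the fold lay above 1 for 5 members (Myc, Mycl, Max, Mxd4 and Mxi1), below 1 for 3 (Mycn, Mnt and Mga) and included 1 for 2.

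**Figure D3:**
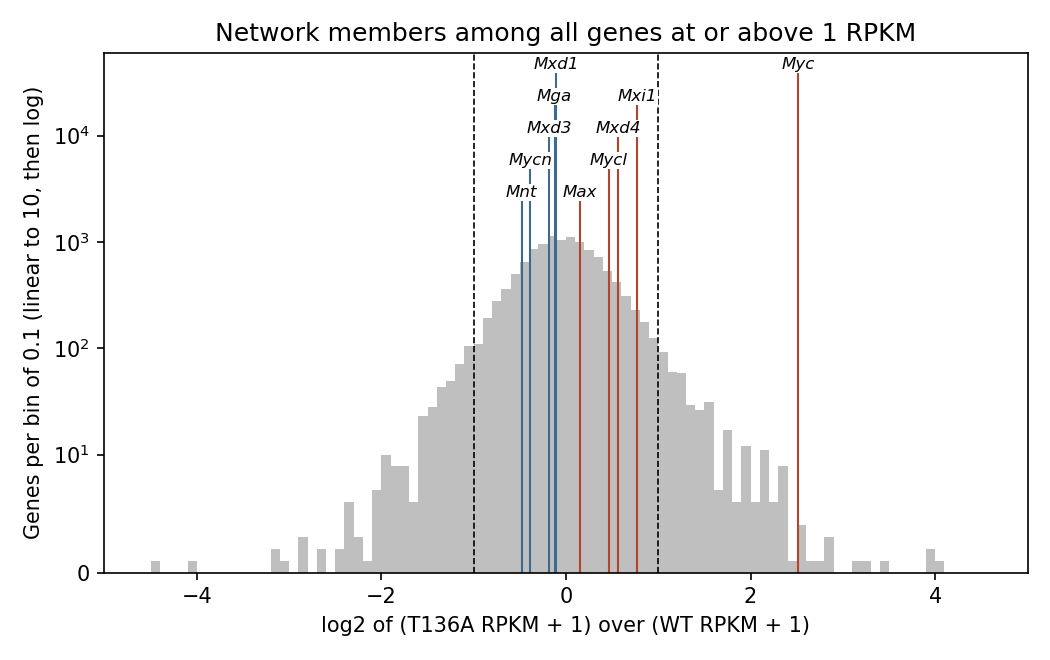
Number of genes per bin of log2 ratio, T136A over WT with 1 RPKM added to each (grey; vertical axis linear up to 10 and logarithmic above), for the 12320 genes at or above 1 RPKM, with vertical lines at the 10 members (red above 0, blue below; line height only separates the names) and dashed lines at 2-fold. Myc, at 2.52, is the only member outside the dashed lines.

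Genes most like 3 of the members were found by their distance in log2(RPKM + 1) over the 2 libraries, which rests on 2 values per gene. Closest to Myc were the X-linked homeobox gene Rhox13 (19.9 RPKM in T136A and 2.15 RPKM in WT, distance 0.163), Fkbp6, Id3, Gm8355 and Itpka. Closest to Mycn were Rabac1, Lsm12, Slc25a11, Ppp2cb and Prkar1a, at distances of 0.0419 to 0.0566. Timm10, Sec23b, Spg21, Vmp1 and Cdk2ap2 were closest to Max, at 0.0211 to 0.0438. Of the MYC-like genes outside the network list, Bmyc was at 0.387 RPKM in T136A and 0.639 RPKM in WT, and the X-linked Mycs was listed at 0 in T136A and had 1 read in WT. The long noncoding RNA Pvt1, which starts 53 kb downstream of the start of Myc, was at 1.02 RPKM in T136A and 0.645 RPKM in WT, 1.58-fold higher (1.18 to 2.11).

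The lists of partners, inputs and targets that follow were compiled with earlier results of these data known. Their counts stand beside 3.13% of all genes at least 2-fold higher and 3.10% at least 2-fold lower on the log2(RPKM + 1) scale, and 47.4% with a log2 ratio above 0. Chromosome 14 stood apart: the median of its 453 genes was 0.32 (log2), while the medians of the other autosomes lay between -0.10 and 0.0035. It carries none of the 10 members, and of the listed genes named below it carries Spry2, Ndrg2 and Gata4. Of 17 MYC cofactors, listed for activation but including Zbtb17 of MYC repression, 0 passed the 2-fold line in either direction, a count near that background. The median log2 ratio of these cofactors was 0.11 beside -0.03 over all genes. Their ratios ran from -0.80 for Zbtb17 to 0.68 for Paf1. The elongation factors Paf1 (26.6 RPKM in T136A and 16.2 RPKM in WT) and Cdk9 (29.3 RPKM in T136A, 18.2 RPKM in WT) had the highest ratios. Zbtb17, which encodes MIZ1, a factor through which MYC represses, had the lowest, at 12.1 RPKM in T136A and 21.9 RPKM in WT. Of 16 genes of the SIN3 corepressor used by the MXD proteins and MNT, 0 passed the 2-fold line, again near the background, and the median was 0.01, with Sap30 highest (66.0 RPKM in T136A and 34.1 RPKM in WT).

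Subunits of MGA's own complex, PRC1.6, had a median of -0.15. Of 13, 4 were above 0, beside 47.4% of all genes, and 0 were at least 2-fold apart, a count near the background. E2f6, which brings the complex to DNA together with MGA and MAX, was at 5.79 RPKM in T136A and 10.5 RPKM in WT, 1.81-fold lower (1.64 to 2.01), and Rybp was at 27.8 RPKM in T136A and 43.6 RPKM in WT. Pcgf6, the subunit that defines PRC1.6, was at 25.4 RPKM in T136A and 21.6 RPKM in WT.

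Germline genes known to be kept silent through MAX, MGA and PRC1.6 did not move one way. Of 22 listed genes 18 reached 1 RPKM; 4 of these (22.2%, beside 3.13% of all genes) were at least 2-fold higher, 1 (5.56%, beside 3.10%) at least 2-fold lower, and the median was 0.14. Higher were the translational regulator Dazl (33.3 RPKM in T136A and 1.24 RPKM in WT), the meiotic inducer Stra8 (20.1 RPKM in T136A, 3.96 RPKM in WT), the germ cell factor Sohlh2 (71.8 RPKM in T136A, 24.4 RPKM in WT) and the testis ADP/ATP carrier Slc25a31. Sycp3, of the synaptonemal complex, was at 6.54 RPKM in T136A and 14.7 RPKM in WT, 2.25-fold lower (1.85 to 2.75), and Mael, of the piRNA pathway, was 1.63-fold lower (1.39 to 1.92). E-boxes were found in the promoter windows of 11 of the 20 germline genes with a window (55.0%), a list picked for control by MAX. The share was 12.3% over the 8904 genes at or above 1 RPKM with a window, while the 20 include genes below 1 RPKM in both libraries. Among the 5 genes at least 2-fold apart, Slc25a31 (higher) and Sycp3 (lower, with a pair of E-boxes) held the motif, while the windows of Dazl, Stra8 and Sohlh2 did not. The stretches around the E-boxes of Slc25a31 and Sycp3 are shown because these genes carry the network's recognition sequence and differed in opposite directions. The same limits were used, so that of Sycp3 ends at the annotated start.
Slc25a31 (chr3:40708738-40708823, plus strand): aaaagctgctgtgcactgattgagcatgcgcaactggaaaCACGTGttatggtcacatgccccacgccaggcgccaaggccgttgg
Sycp3 (chr10:88459483-88459586, plus strand): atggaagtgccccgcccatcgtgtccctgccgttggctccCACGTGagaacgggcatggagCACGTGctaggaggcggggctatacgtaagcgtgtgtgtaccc

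In the parallel MLX arm, in which MLX takes the place of MAX and pairs with the glucose sensors MondoA (Mlxip) and ChREBP (Mlxipl), the pair of target genes listed was lower. Txnip, an inhibitor of glucose uptake, was at 75.8 RPKM in T136A and 220 RPKM in WT, 2.91-fold lower (2.81 to 3.01). Its relative Arrdc4 was at 20.2 RPKM in T136A and 80.5 RPKM in WT, 3.98-fold lower (3.76 to 4.21). Mlx was at 37.0 RPKM in T136A and 19.2 RPKM in WT, and Mlxip at 2.38 RPKM in T136A and 2.39 RPKM in WT. In all, 2 of the 5 genes were at least 2-fold lower (beside 3.10% of all genes) and 0 were at least 2-fold higher (beside 3.13%). The list median of -0.41 was the value of Mlxipl itself, which was at 0.540 RPKM in T136A and 1.05 RPKM in WT and reached 1 RPKM through WT alone; with a minimum on the mean of both libraries the median was -0.77, with 0.1 RPKM added -0.85 and with 5 RPKM added -0.13.

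Genes that MYC is known to activate, 108 at or above 1 RPKM over 5 lists, were mainly within 2-fold. At least 2-fold higher were 5 (4.63%, beside 3.13% of all genes) and at least 2-fold lower 2 (1.85%, beside 3.10%), counts near the background. Of the 108, 69 (63.9%) had a log2 ratio above 0, beside 47.4% of all genes, and the median was 0.11. The lists differed among themselves. Targets of glycolysis and mitochondria had a median of 0.26 with 18 of 20 above 0, led by the mitochondrial chaperone Hspd1 (742 RPKM in T136A and 258 RPKM in WT), lactate dehydrogenase Ldha (441 RPKM in T136A, 161 RPKM in WT) and prohibitin Phb (275 RPKM in T136A, 116 RPKM in WT). Targets of translation and folding had a median of 0.32 with 11 of 15 above 0 and 0 at least 2-fold apart; the chaperone Hsp90ab1 was highest, at 2629 RPKM in T136A and 1505 RPKM in WT.

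Nucleolar and ribosome biogenesis targets had a median of 0.16, with 23 of 35 above 0. Bop1, needed for the large ribosomal subunit, was at 101 RPKM in T136A and 47.4 RPKM in WT, and the helicase Ddx21 at 79.6 RPKM in T136A and 42.7 RPKM in WT. The snoRNP core genes Nop56 (82.5 RPKM in T136A and 167 RPKM in WT) and Nop58 (40.1 RPKM in T136A, 64.7 RPKM in WT) were lower. Among targets of nucleotide, polyamine and one-carbon synthesis the median was 0.07 over 18 genes. Prps2, which makes the sugar phosphate for nucleotides, was at 15.4 RPKM in T136A and 6.43 RPKM in WT, while Shmt2, of the mitochondrial folate cycle and also a target of ATF4, was at 74.9 RPKM in T136A and 235 RPKM in WT. Targets of the cell cycle and replication lay the other way, with a median of -0.16 and 14 of 20 below 0; 0 were at least 2-fold apart, and Mcm2, of the replicative helicase, was at 87.4 RPKM in T136A and 120 RPKM in WT.

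Genes that MYC represses were split. Of 15, 10 reached 1 RPKM. Of these 10, 3 were at least 2-fold lower (beside 3.10% of all genes) and 1 at least 2-fold higher (beside 3.13%). Their median was -0.29. That median depended on the minimum level: it was -0.07 with no minimum and -0.77 with a minimum of 5 RPKM. The cell cycle inhibitor Cdkn1b was at 13.0 RPKM in T136A and 33.5 RPKM in WT, 2.59-fold lower (2.41 to 2.78), and the stress gene Gadd45a at 5.76 RPKM in T136A and 17.7 RPKM in WT. Gadd45g was at 0.324 RPKM in T136A and 2.53 RPKM in WT and reached 1 RPKM through WT alone. Cdkn2b, which reached it through T136A alone, was at 2.19 RPKM in T136A and 0.410 RPKM in WT. Ndrg1 also reached it through T136A alone, at 1.29 RPKM in T136A and 0.303 RPKM in WT, and Ndrg2, on chromosome 14, was at 20.6 RPKM in T136A and 10.2 RPKM in WT; on the log2(RPKM + 1) scale both were below the 2-fold line.

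**Figure D4:**
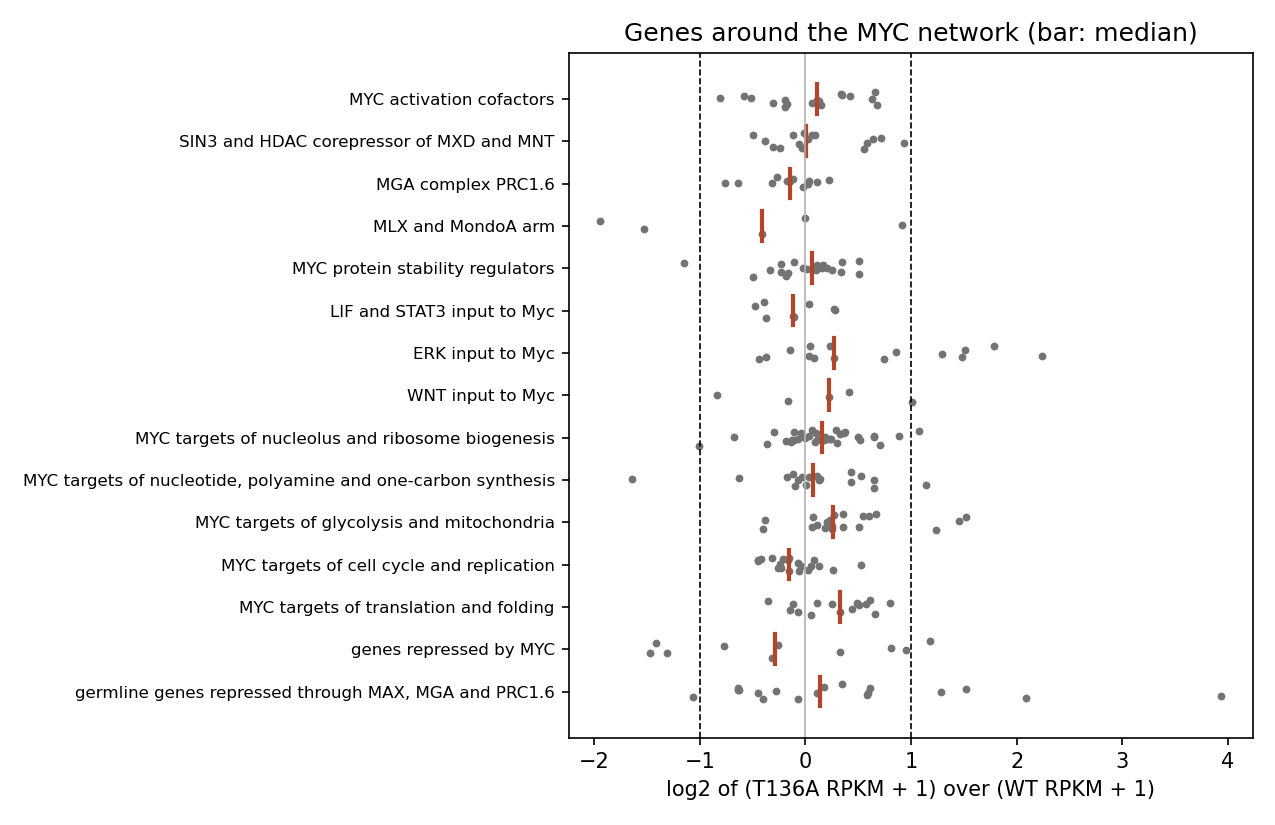
Log2 ratio, T136A over WT with 1 RPKM added to each, of every gene at or above 1 RPKM in 15 lists around the network (grey points, with vertical jitter; red bars: list medians), with dashed lines at 2-fold and 1 library per genotype. Cofactor, corepressor, PRC1.6, LIF and STAT3, cell cycle and translation genes lie within 2-fold, while each of the other lists has at least 1 gene beyond it.

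Among 20 regulators of MYC protein stability 1 was at least 2-fold lower and 0 higher, a count near the background of 3.10% and 3.13%, and the median was 0.06. That gene was Pim1, a kinase gene induced by STAT3 that stabilises MYC, at 31.3 RPKM in T136A and 70.5 RPKM in WT. Fbxw7, the ubiquitin ligase subunit that targets MYC and MYCN for breakdown, was at 4.55 RPKM in T136A and 2.90 RPKM in WT, 1.57-fold higher (1.37 to 1.79).

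Of the signals known to act on Myc, the ERK list had the most genes past the 2-fold line. Among 15 of them 5 (33.3%, beside 3.13% of all genes) were at least 2-fold higher and 0 (beside 3.10%) lower, with a median of 0.27. Of these 15, Egr1 and Fos reached 1 RPKM through T136A alone, Egr1 is among the 5 counted, and so is Spry2 of chromosome 14. The feedback inhibitor Spry4 was at 12.7 RPKM in T136A and 1.91 RPKM in WT, the serum-induced factor Egr1 at 5.601 RPKM in T136A and 0.917 RPKM in WT, and Etv4 at 72.1 RPKM in T136A and 24.6 RPKM in WT, while the kinase gene Mapk3 (48.2 RPKM in T136A, 65.8 RPKM in WT) was lower. In the LIF and STAT3 list 0 of 8 passed the 2-fold line, with a median of -0.11 for the list; Stat3 was at 17.2 RPKM in T136A and 22.6 RPKM in WT and its target Socs3 at 103 RPKM in T136A and 85.1 RPKM in WT. Only 5 of 12 genes of the WNT list reached 1 RPKM. Of these, 1 (20.0%, beside 3.13% of all genes) was at least 2-fold higher and 0 (beside 3.10%) lower, with a median of 0.22. Tcf7 was at 45.2 RPKM in T136A and 22.0 RPKM in WT, while Tcf7l2 was at 1.32 RPKM in T136A and 3.14 RPKM in WT and Tcf7l1 at 12.8 RPKM in T136A and 14.5 RPKM in WT. The WNT target Axin2 was below 1 RPKM in both, at 0.375 RPKM in T136A and 0.456 RPKM in WT. Its fold was 0.822, with an interval of 0.518 to 1.30 that includes 1. Sp5 (0.440 RPKM in T136A, 0.163 RPKM in WT) and Nkd1 (0.465 RPKM in T136A, 0.401 RPKM in WT), also below 1 RPKM, lay the other way. Their fold intervals were 1.01 to 8.35 for Sp5 and 0.708 to 1.91 for Nkd1.

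Markers of other states were checked beside these values. The pluripotency list of 11 genes summed to 2117 RPKM in T136A and 2135 RPKM in WT. Utf1 and Dppa4 (18.2%, beside 3.13% of all genes) were at least 2-fold higher and 0 (beside 3.10%) lower. Most of the list lay the other way: 8 of the 11 had a log2 ratio below 0 and 3 above it, with a median of -0.26. For feeder fibroblasts, 9 of 12 markers had a value and 5 reached 1 RPKM; the list summed to 88.8 RPKM in T136A and 122 RPKM in WT, most of the WT sum being Fn1 (32.9 RPKM in T136A, 93.4 RPKM in WT). The median log2 ratio pointed the other way, at 0.81 over the 5 genes at 1 RPKM, 4 of them above 0, and at 0.13 with no minimum. Vim (19.9 RPKM in T136A, 10.9 RPKM in WT), S100a6 (28.0 RPKM in T136A, 13.3 RPKM in WT) and Thy1 (5.32 RPKM in T136A, 2.50 RPKM in WT) were higher, while the fibroblast collagens Col1a1 (0.530 RPKM in T136A, 0.470 RPKM in WT) and Col1a2 (0.0525 RPKM in T136A, 0.0368 RPKM in WT) were near 0 in both libraries. Of 17 markers of ectoderm, mesoderm and endoderm 9 reached 1 RPKM, and the list summed to 47.0 RPKM in T136A and 48.3 RPKM in WT. Of these 9, 6 had a log2 ratio above 0, with a median of 0.34 (0.11 with no minimum). The endoderm factors Sox17 (1.38 RPKM in T136A, 0.551 RPKM in WT) and Gata6 (1.68 RPKM in T136A, 0.805 RPKM in WT) reached 1 RPKM through T136A alone. Gata4, of chromosome 14, was at 1.68 RPKM in T136A and 1.11 RPKM in WT, Nes at 1.91 RPKM in T136A and 1.18 RPKM in WT, and Krt8 at 8.52 RPKM in T136A and 6.04 RPKM in WT. The neural factor Sox1 passed the 2-fold line downwards (1.55 RPKM in T136A, 7.77 RPKM in WT). The part of cell composition in the Myc value was not tested.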

How the data were processed

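RNA-seq libraries were built from total RNA with a TruSeq kit, per the labels' protocols. The authors deposited 1 value per Ensembl gene and library, read here as RPKM from the values: times the GENCODE M21 union exon length and 1 constant per library, 90.0% of positive T136A values and 89.9% of WT values were whole within 0.01. The submitters' processing notes name CASAVA 1.8 and mm9 with no role; M21 describes GRCm38, another build. For the aligner, the counter and the strand rule, the sources used here name nothing.

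Symbols were matched for 25696 of 25749 identifiers. Ratios are log2 of T136A RPKM + 1 over WT RPKM + 1, for genes that reach 1 RPKM in 1 or both libraries; folds are plain RPKM ratios, with exact conditional binomial 95% intervals from recovered reads (scipy 1.17.1). With 1 library per genotype no test was run. The steps were tested on simulated data.

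The members and the 19 gene lists were chosen with earlier results of these data known. Genes named are all members, up to 3 at each end of each list, the 5 nearest genes to Myc, Mycn and Max, Bmyc, Mycs, Pvt1 and pluripotency markers. One gene that this rule would name is not reported here. Axin2, Sp5, Nkd1, Fos, Spry2, Gata4, Nes, Col1a1, Col1a2, Slc25a31, Prelid1, Gm42846 and Gm10197 were chosen after their values were seen. Ahcy, where the amino acid differs, was at 56.6 RPKM in T136A and 52.9 RPKM in WT.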

Additional observations from a re-analysis of the deposited data

How the results depend on the processing

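No paired analysis was possible because each genotype had 1 library, and leaving out a library leaves no comparison. The alternatives were 3 other scalings, 0.1 or 5 RPKM added in place of 1, 3 other minimum levels and, chosen after seeing the data, removal of chromosome 14 genes, whose median log2 ratio of 0.32 stood apart from the other autosomes. Of 252 alternative values 237 stayed within the interval of the main value, or within 1.5 times for counts, and 0 turned the direction of a value at least 2-fold apart. For list medians the interval was that of the median over the list's genes, not of counting error, and in the shortest lists their full range. It was wide, -1.48 to 1.02 for the feeder list, so staying within it says little of how stable these medians are. With 0.1 added, 2 members (Myc and Mxd4) were at least 2-fold higher, Myc had a log2 ratio of 2.91 and Mxd4 one of 1.13, and over all genes 723 were higher and 727 lower. With 5 added, Myc was at 1.65, Mxi1 at 0.49, Mnt at -0.35, Mycl at 0.21 and Mxd4 at 0.18, with 101 genes higher and 114 lower. A minimum of 5 RPKM left 209 higher genes. Larger added values shrink the ratios of low genes by construction. On read numbers, Myc made up 18.8% of the MYC-type sum in T136A and 2.27% in WT, since lengths differ. The SIN3 list's median of 0.01 was -0.0055 after quantile normalization and -0.0156 without chromosome 14. By its counting interval the fold of Mxd4, with 75 WT reads, is the least precise of the 10 members, and Bmyc and Mycs had few reads, and the lack of a second library limits every difference.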

Other observations

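Within 2 Mb on either side of Myc, 3 other genes reached 1 RPKM in at least 1 library: Pvt1, Fam84b and Fam49b, the last pair chosen by this distance after the data were seen. Fam84b, starting 1166 kb before Myc, was at 0.156 RPKM in T136A and 1.82 RPKM in WT, and Fam49b, starting 1944 kb after it, was at 20.3 RPKM in T136A and 18.1 RPKM in WT. Chromosome 15, which carries Myc, had a median log2 ratio of -0.04 over 484 genes, and chromosome 12, which carries Mycn and Max, one of -0.01 over 447 genes.

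Across all genes at or above 1 RPKM, the 1098 with the E-box CACGTG in a promoter window had a median log2 ratio of -0.06, and the 7806 with a window and no E-box had one of -0.03. At least 2-fold higher in T136A were 21 of the genes with the E-box (1.91%) and 208 of those without it (2.66%), and at least 2-fold lower were 33 (3.01%) and 225 (2.88%). The other 3416 genes, Myc among them, had no window and a median of -0.02. Of these, 157 (4.60%) were at least 2-fold higher and 124 (3.63%) at least 2-fold lower.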
